A study of Drosophila melanogaster with 3 samples.

Results

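The aminoacyl-tRNA synthetase genes of Drosophila melanogaster were examined for promoter peaks of Nf-YB. They were chosen by name, as the protein-coding genes whose symbol is a three-letter amino acid name, or a pair of them, followed by RS. Of 13945 protein-coding genes, 33 fit this rule, 15 with the ending -m for the mitochondrial enzyme and 18 without it, here called cytosolic. Binding was measured by chromatin immunoprecipitation with sequencing in whole embryos of 0 to 24 h, males and females mixed. The embryos came from a transgenic line with GFP fused to the C-terminal end of Nf-YB, the B subunit of the CCAAT-binding factor NF-Y, and an antibody against GFP was used. There were 3 biological replicates of this single group, and no other genotype or treatment. What drives the tagged protein is not given in the sources used here. In whole embryos, strong binding in few cells and weak binding in many cells cannot be told apart.

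Each aminoacyl-tRNA synthetase joins an amino acid to the tRNAs that carry its anticodon, the step at which the genetic code is read into protein. The cytosolic enzymes serve the translation of nuclear messages, and the mitochondrial ones, also encoded in the nucleus, serve the translation of the few proteins encoded by mitochondrial DNA. In animals some nuclear genes make both forms from alternative starts, so the ending of a symbol does not fully sort the enzymes by place. NF-Y is a trimer that recognises CCAAT boxes, which are common in promoters of housekeeping genes in mammals.

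The deposited optimal list, which the authors took by irreproducible discovery rate, holds 6221 peaks. They are the 6221 pooled peaks of highest signal, so a peak in it need not be found in every replicate. A gene was called bound when the summit of such a peak lay within 500 bp of one of its transcription start sites (TSSs). Peaks were ranked by the authors' signal value, which says nothing of read depth, and rank 1 is the highest. The lists carry no read counts, so the depth is unknown. The replicates differed in base composition: the mean GC content within 50 bp of the summit of the 6221 highest peaks was 41.0% in replicate 1, 41.7% in replicate 2 and 37.3% in replicate 3.

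The sequences printed here give the bases near summits at bound promoters and do not show which bases the factor was on. They were read from the RefSeq copy of the dm6 assembly on the strand of the synthetase gene, within 50 bp of the summit and outside annotated exons. Capitals mark the CCAAT box, which reads ATTGG where it lies on the opposite strand. They also mark GAGAG, bound by the Trithorax-like protein, and the DNA replication-related element TATCGATA. The summit is base 51 of each sequence of 101 bases. The first and second are the CCAAT-bearing windows of IleRS, at chr3L:22288434-22288534, and ThrRS, at chr2L:12103520-12103620. GluProRS, at chr3R:23958450-23958550 on the minus strand, and AsnRS, at chr2L:19131988-19132088 on the minus strand, are shown as windows with none of these motifs. ArgRS-m, at chr3R:7886740-7886840, is shown as the single bound mitochondrial gene. The AlaRS sequence, at chr2L:8381765-8381801 on the minus strand, is the stretch of 37 bases just upstream of the TSS, shown for its replication-related element.
IleRS: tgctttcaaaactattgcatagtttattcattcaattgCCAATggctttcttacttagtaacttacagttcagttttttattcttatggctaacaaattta
ThrRS: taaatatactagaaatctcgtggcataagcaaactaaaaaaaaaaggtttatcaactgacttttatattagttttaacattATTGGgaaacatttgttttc
GluProRS: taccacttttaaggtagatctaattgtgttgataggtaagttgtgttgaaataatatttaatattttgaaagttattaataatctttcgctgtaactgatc
AsnRS: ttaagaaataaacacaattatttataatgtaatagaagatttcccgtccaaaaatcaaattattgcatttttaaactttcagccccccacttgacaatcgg
ArgRS-m: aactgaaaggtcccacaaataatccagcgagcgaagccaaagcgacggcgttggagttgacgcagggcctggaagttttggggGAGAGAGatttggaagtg
AlaRS: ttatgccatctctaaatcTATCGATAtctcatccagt

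The cytosolic and mitochondrial genes stood on opposite sides of the genome-wide share. In the optimal list 8 of 18 cytosolic genes were bound (44.4%), namely IleRS, SerRS, ThrRS, GluProRS, ValRS, AspRS, AsnRS and AlaRS, and 1 of 15 mitochondrial genes (6.67%), ArgRS-m. Of all protein-coding genes 21.6% were bound. All 33 members together gave 9 bound genes (27.3%), which is near that background, so the family as a whole did not stand out and the split lay between its classes.

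The same order held in each replicate when its 6221 highest peaks were taken. Among cytosolic genes 8, 6 and 11 were bound in replicates 1, 2 and 3, a mean of 46.3% ± 14.0 (SD, n = 3), and among mitochondrial genes 2, 1 and 2, a mean of 11.1% ± 3.85. The backgrounds were 21.1%, 19.0% and 22.6% of protein-coding genes in replicates 1, 2 and 3. The cytosolic share exceeded the mitochondrial share by 31.1, 26.7 and 47.8 percentage points, a mean of 35.2 ± 11.1 (SD, n = 3). The direction was thus the same in 3 of 3 replicates, with a two-sided exact sign-flip permutation p = 0.25, the smallest that 3 replicates can give. This compares replicates and not genes, which are not replicates of a condition, and with 3 replicates this exact test cannot pass the usual threshold.

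**Figure D1:**
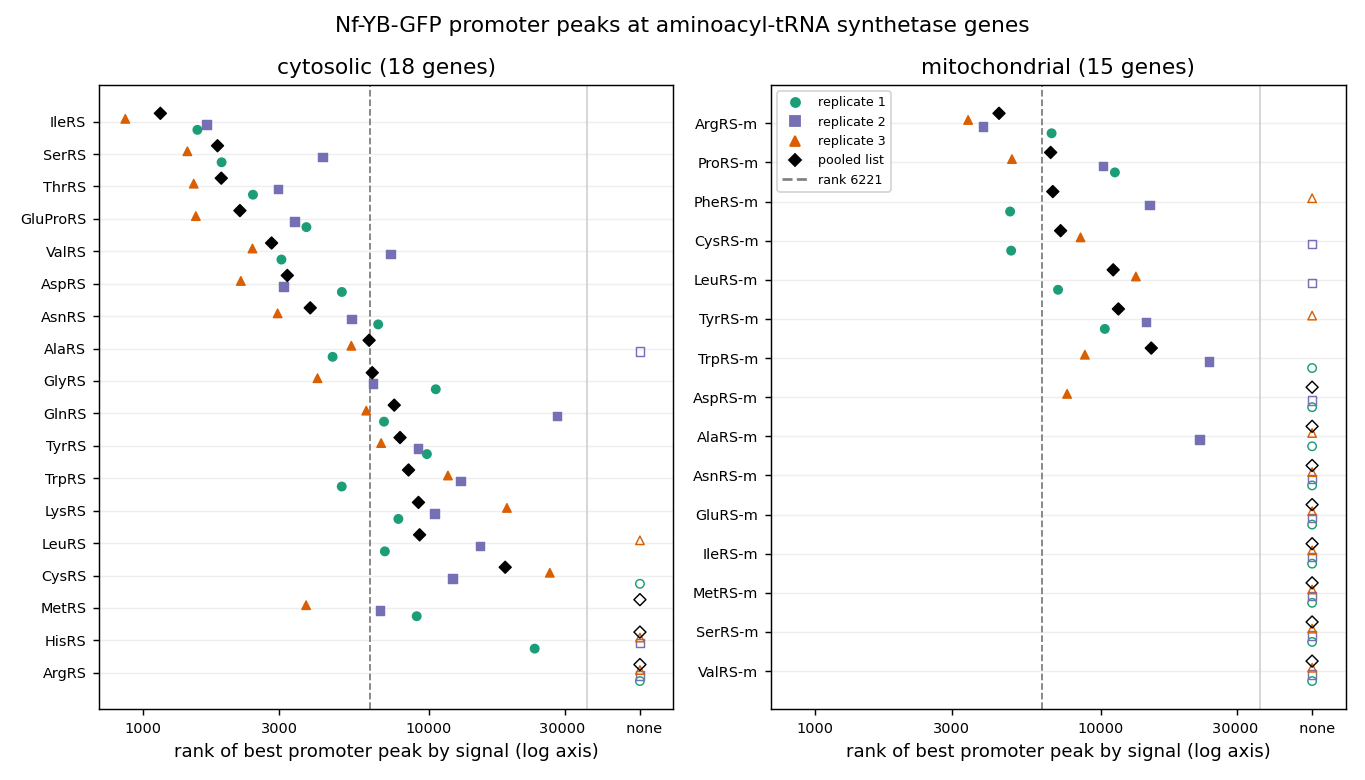
Rank of the best promoter peak of each synthetase gene (x axis, log scale, rank 1 highest) in replicates 1 to 3 and the pooled list, for 18 cytosolic genes on the left and 15 mitochondrial genes on the right. The dashed line is rank 6221, where the optimal list ends, and open symbols mark lists with no promoter peak. In the pooled list 8 cytosolic genes and 1 mitochondrial gene lie left of the line, and 6 mitochondrial genes have no peak in any list.

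The longer lists kept the difference. In the pooled list, which has 30000 peaks, 15 of 18 cytosolic genes (83.3%) and 7 of 15 mitochondrial genes (46.7%) had a promoter peak, against 48.1% of protein-coding genes. In the full replicate lists the counts were 16, 15 and 15 cytosolic genes and 6 mitochondrial genes in each replicate, against 49.4%, 46.8% and 47.3% of protein-coding genes in replicates 1, 2 and 3. The mitochondrial genes thus lay below the genome-wide share in the optimal list and close to it in the pooled list.

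**Figure D2:**
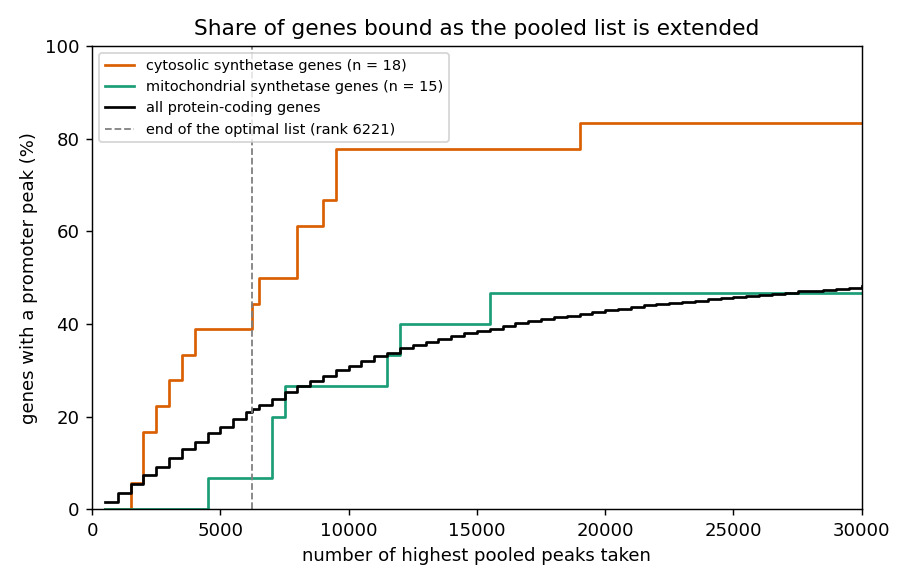
Share of genes with a promoter peak (y axis, percent) as more of the highest pooled peaks are taken (x axis, steps of 500 peaks), for cytosolic synthetases, mitochondrial synthetases and all protein-coding genes. At 10000 peaks the shares are 77.8%, 26.7% and 31.0%.

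For 12 amino acids the annotation has a gene of each class, which allows a comparison within the amino acid. The cytosolic gene held the higher pooled promoter peak for 9 of them, the mitochondrial gene for arginine and cysteine, and neither gene had one for methionine. A gene with no promoter peak was counted as the lower. Of the 9, the mitochondrial gene had none for alanine, asparagine, aspartate, isoleucine, serine and valine. For leucine, tryptophan and tyrosine both genes had a pooled peak. In the replicates the cytosolic gene was higher for 10, 10 and 8 of the 12. Arginine was the single amino acid whose mitochondrial gene ranked higher in all 3 replicates. ArgRS was also the single cytosolic gene with no promoter peak in any list, and the nearest optimal summit lay 9313 bp from its TSS.

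IleRS (FBgn0027086, 3L from 22288665 to 22292810), which charges tRNA with isoleucine, had the strongest peak of the family. The peak, at 3L from 22288392 to 22288634, had its summit in intergenic sequence 181 bp upstream of the TSS. Its rank was 1149 in the optimal list, with a signal 2.35 times the list median. The gene's best promoter peak ranked 1549, 1665 and 866 in replicates 1, 2 and 3, so the replicates placed it among their highest 6221 without exception.

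SerRS (FBgn0031497, 2L from 3035493 to 3037403) and ThrRS (FBgn0027081, 2L from 12103751 to 12107170), the enzymes for serine and threonine, followed at ranks 1822 and 1878. The SerRS summit lay 38 bp downstream of the TSS in the 5' UTR, and its signal was 1.58 times the median. Ranks for SerRS were 1883, 4247 and 1429 in replicates 1, 2 and 3, lowest in replicate 2. The ThrRS summit lay 181 bp upstream in intergenic sequence with a signal 1.53 times the median, and its ranks were 2425, 2964 and 1504.

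GluProRS (FBgn0005674, 3R from 23952136 to 23958391) encodes a single chain that joins the enzymes for glutamate and proline. Its peak ranked 2183, with a signal 1.33 times the median and the summit 109 bp upstream of the TSS in intergenic sequence. The replicate ranks were 3732, 3396 and 1530, all within the highest 6221.

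AspRS (FBgn0002069, 2R from 12877004 to 12883168), the aspartate enzyme, has 3 annotated TSSs and was the member with the most optimal promoter peaks, 3 in all. The strongest, at rank 3199 and 0.975 times the median, lay 365 bp upstream of an internal TSS and inside an intron of AspRS and of the overlapping gene Nmda1. The others, at ranks 4723 and 5047, lay 161 bp upstream of the same TSS, in the 5' UTR of Nmda1, and 303 bp upstream of the outer TSS, in an exon of the antisense RNA gene asRNA:CR43468. The peaks at ranks 3199 and 4723 overlapped. The best AspRS promoter peak ranked 4968, 3100 and 2199 in replicates 1, 2 and 3. It lay at the outer TSS in replicates 1 and 2 and at an internal TSS in replicate 3. The summit of optimal rank 3199 was matched within 100 bp at ranks 5186, 3423 and 2199. IleRS, SerRS, ThrRS, GluProRS and AspRS were the 5 members with a promoter peak among the highest 6221 of all 3 replicates, which held for 13.8% of all protein-coding genes.

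ValRS, AsnRS and AlaRS each had a promoter peak among the highest 6221 of 2 replicates. ValRS (FBgn0027079, 2R from 13198850 to 13202709), the valine enzyme, had a peak at rank 2818 whose summit lay 377 bp upstream, and its ranks of 3051, 7357 and 2415 fell outside the highest 6221 in replicate 2. AsnRS (FBgn0086443, 2L from 19129469 to 19131954), the asparagine enzyme, had a peak at rank 3849 with the summit 84 bp upstream, and its ranks of 6659, 5361 and 2959 fell outside in replicate 1. AlaRS (FBgn0027094, 2L from 8378262 to 8381764), the alanine enzyme, had a peak at rank 6189 with the summit 13 bp downstream of the TSS in the 5' UTR. A summit within 100 bp of it was found in replicate 1 alone, at rank 4610. Replicate 3 had another promoter peak, at rank 5363 with its summit at -126 bp, and replicate 2 had none, so 2 replicates had a promoter peak of the gene among their highest 6221.

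ArgRS-m (FBgn0037526, 3R from 7887045 to 7890150), which charges mitochondrial tRNA with arginine, had a pair of overlapping optimal promoter peaks at ranks 4401 and 5832. Their summits lay 255 and 56 bp upstream of the TSS, with signals 0.750 and 0.595 times the median. The gene ranked 6726, 3873 and 3430 in replicates 1, 2 and 3. Each of these 2 summits was found among the highest 6221 in only 1 replicate, replicate 2 for the stronger and replicate 3 for the weaker. At any rank, the stronger summit was matched within 100 bp at 6726 and 3873 in replicates 1 and 2 and not in replicate 3. The weaker one was matched at 8467, 8646 and 3430 in replicates 1, 2 and 3.

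The median rank of the 9 bound members was 2818, close to the median of 2937 over all bound protein-coding genes, so their signals were of middling strength. The summit lay upstream of the TSS in 7 of 9 members (77.8%), at a median position of -181 bp, against 84.4% and -135 bp for all bound protein-coding genes. Of the 12 promoter peaks of members, 5 were found within 100 bp of a summit among the highest 6221 of all 3 replicates, against 54.8% of the 2604 promoter peaks at protein-coding genes.

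Replicate 3 ranked 8 of the 9 bound members higher than the other replicates did, AlaRS being the exception with its highest rank in replicate 1. Whether the same held for all bound protein-coding genes was not tested. With equal numbers of highest peaks, 22.6% of protein-coding genes were bound in replicate 3, against 21.1% and 19.0% in replicates 1 and 2. The windows within 50 bp of the members' 12 summits had a median GC content of 28.2%, from 23.8% at ValRS to 53.5% at the stronger ArgRS-m peak, against 37.6% for all promoter peaks at protein-coding genes. Replicate 3 also had the lowest GC content at its highest peaks, as given above. The part of base composition in the members' ranks was not tested.

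The members just below the end of the optimal list were of both classes. AlaRS, at rank 6189, was the last one inside. GlyRS, for glycine, came next at pooled rank 6348, ProRS-m, the mitochondrial proline enzyme, at 6674, PheRS-m, for phenylalanine, at 6791, CysRS-m at 7232 and GlnRS at 7580. GlyRS had a promoter peak at ranks 10597, 6380 and 4081 in replicates 1, 2 and 3, and ProRS-m at 11206, 10195 and 4885. GlnRS, the glutamine enzyme, had peaks at ranks 6980, 28210 and 6049, far lower in replicate 2 than in the others.

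Of the other cytosolic genes, TyrRS, TrpRS, LysRS, LeuRS and CysRS had pooled ranks of 7943, 8506, 9215, 9300 and 18552. TrpRS reached rank 4963 in replicate 1. MetRS, which also charges the initiator tRNA, had no pooled promoter peak but a peak in each replicate, at ranks 9085, 6764 and 3723. HisRS, for histidine, had 1 promoter peak in replicate 1, at rank 23533, and none in the other lists.

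Of the other mitochondrial genes, LeuRS-m, TyrRS-m and TrpRS-m had pooled ranks of 11054, 11528 and 15030. PheRS-m and CysRS-m reached ranks 4813 and 4853 in replicate 1. AspRS-m had a promoter peak in replicate 3 alone, at rank 7622, and AlaRS-m in replicate 2 alone, at 22143. AsnRS-m, GluRS-m, IleRS-m, MetRS-m, SerRS-m and ValRS-m had none in any list. Of 15 mitochondrial genes 2, ArgRS-m and ProRS-m, had a promoter peak in all 3 full replicate lists, against 13 of 18 cytosolic genes and 34.8% of all protein-coding genes.

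Synthetases fall into class I and class II by the fold of their catalytic domain. These groups were looked at after the values were seen and are given as counts. Among cytosolic genes 5 of 8 with a class II enzyme were bound in the optimal list, the serine, threonine, aspartate, asparagine and alanine enzymes, and 2 of 9 with a class I enzyme, the isoleucine and valine enzymes. In the pooled list the counts were 7 of 8 and 7 of 9. The shares of all protein-coding genes were 21.6% in the optimal and 48.1% in the pooled list. GluProRS holds an enzyme of each class and was left out. Of the 8 enzymes that form the multi-synthetase complex in mammals, 3 had a gene bound in the optimal list (AspRS, GluProRS and IleRS), against 5 of the other 10 cytosolic genes, and in the pooled list the counts were 6 of 8 and 9 of 10.

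Most bound synthetase promoters were shared with a gene running the other way. At 8 of the 9 bound members every optimal promoter summit also lay within 500 bp of a TSS of another protein-coding gene, and AlaRS was the exception. Among all bound protein-coding genes 49.0% had shared peaks alone. The IleRS peak was shared with Hem, a subunit of the actin-regulating WAVE complex whose TSS lay 470 bp from that of IleRS. The GluProRS peak was shared with AP-1sigma, a subunit of a clathrin adaptor, at a gap of 260 bp, and the AsnRS peak with DCTN6-p27, a dynactin subunit, at 369 bp. ThrRS lay 466 bp from Patsas and SerRS 8 bp from CG17260. In each of these 5 the summit was nearer to the synthetase TSS.

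At ValRS and AspRS the summits were nearer to the neighbour. The ValRS summit lay 136 bp upstream of Kdm4B, a histone demethylase gene, and 377 bp upstream of ValRS. AspRS had a head-to-head neighbour at its outer TSS, Lfg at a gap of 38 bp, and another at its internal TSSs, Nmda1 at 54 bp, which lies within the span of AspRS. Both neighbours are of the TMBIM family of membrane proteins, and the summits of all 3 AspRS peaks were nearer to one of them. The stronger ArgRS-m summit lay 57 bp upstream of CG17816 and the weaker one was nearer to ArgRS-m. From a summit alone, binding for the synthetase and binding for its neighbour cannot be told apart.

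**Figure D3:**
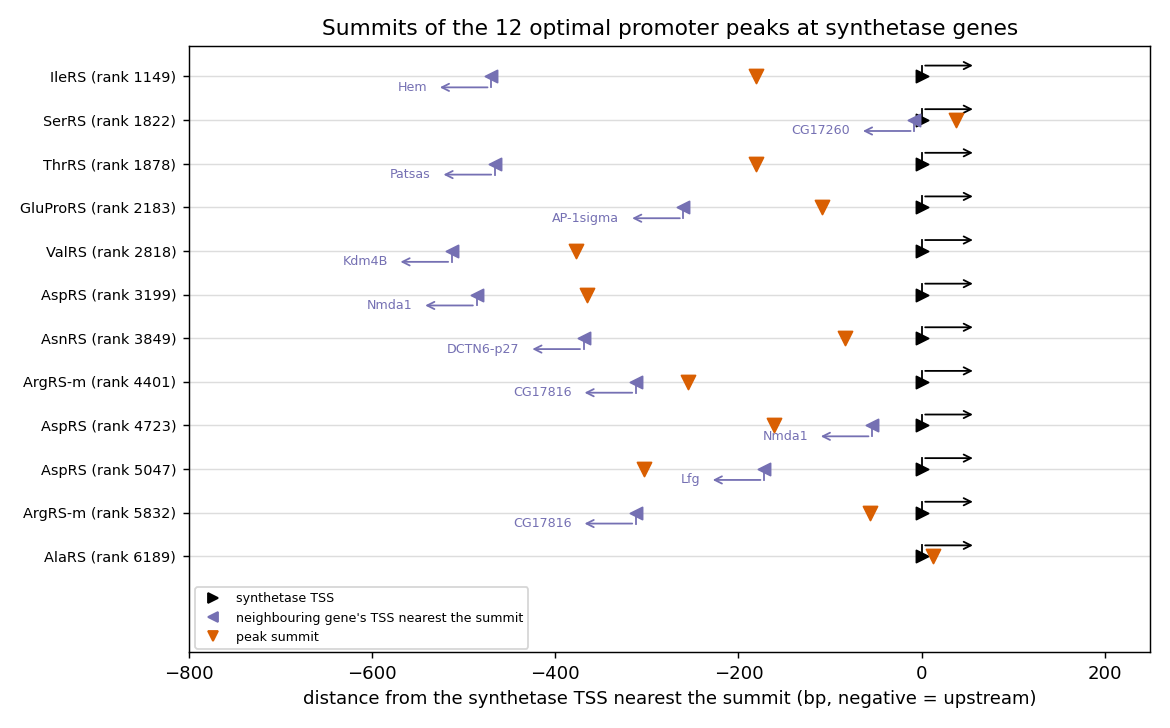
Summits of the 12 optimal promoter peaks of bound synthetase genes (x axis, bp from the synthetase TSS nearest the summit, negative is upstream), with the nearest TSS of the neighbouring protein-coding gene. Arrows show the direction of transcription. All peaks but that of AlaRS have a neighbour's TSS within 500 bp of the summit.

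The classes differed in this arrangement too. A protein-coding gene on the opposite strand with its TSS within 1000 bp upstream was found for 16 of 18 cytosolic genes (88.9%) and 7 of 15 mitochondrial genes (46.7%), against 36.2% of all protein-coding genes. Among genes with such a head-to-head neighbour 7 of 16 cytosolic (43.8%), 1 of 7 mitochondrial (14.3%) and 33.5% of all protein-coding genes were bound. Among genes without one the counts were 1 of 2 cytosolic (AlaRS) and 0 of 8 mitochondrial, against 14.9%. In the pooled list 13 of 16 cytosolic and 5 of 7 mitochondrial genes with a head-to-head neighbour had a promoter peak, against 66.5% of all such genes, and 2 of 2 and 2 of 8 without one, against 37.6%.

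Counts by the number of annotated TSSs were as follows. Of the 11 cytosolic genes with 1 TSS, 2 were bound (18.2%, IleRS and AsnRS), against 16.2% of all protein-coding genes with 1 TSS. Of the 6 with 2 TSSs, 5 were bound, against 31.1%, LysRS being the exception. AspRS, the single member with 3, was bound, against 49.5% of genes with 3 or more. Among mitochondrial genes 1 of 13 with 1 TSS was bound and 0 of 2 with 2 TSSs. With only the TSS farthest 5' of each gene counted, the same 8 cytosolic genes and ArgRS-m were bound, against 19.1% of all protein-coding genes. The part of promoter arrangement and TSS number in the difference between the classes was not tested.

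**Figure D4:**
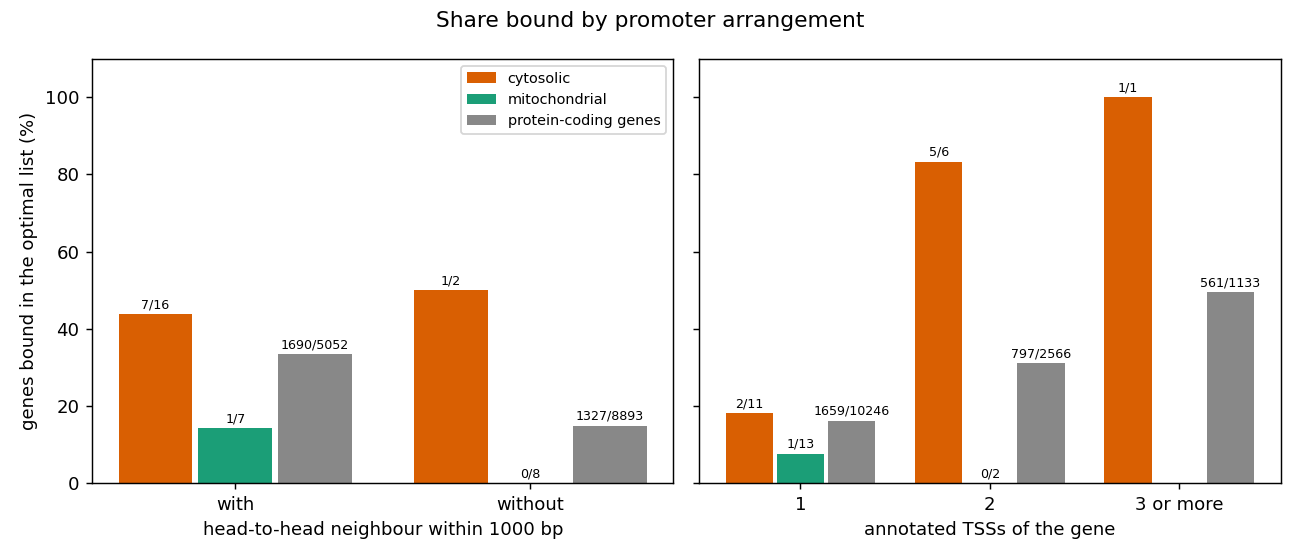
Share of genes bound in the optimal list (y axis, percent) by presence of a head-to-head neighbour (left) and by number of annotated TSSs (right), for cytosolic and mitochondrial synthetases and all protein-coding genes. Numbers above the bars are bound genes over all genes in the group, and 7 of 16 cytosolic genes with a head-to-head neighbour were bound.

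The CCAAT box was found on either strand within 50 bp of 4 of the 12 member summits (33.3%), against 24.3% of all promoter peaks at protein-coding genes. These 4 were the peaks at IleRS, ThrRS and AlaRS and the weakest at AspRS. In the printed IleRS and ThrRS sequences it is the stretch in capitals, while the AlaRS box lay within the 5' UTR and is not shown. The extended form CCAATCA was found at 0 of 12, against 3.26%. GAGAG was found at 2 of 12 summits, ArgRS-m and AspRS, against 17.7%, TATCGATA at AlaRS alone, against 2.88%, and CGATA, which is part of TATCGATA, at 2 of 12, against 18.3%. TGATGNAA, a form of the site of the stress factor ATF4, and Ohler Motif 1 were found at 0 of 12, against 1.11% and 1.08%.

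The same letters were counted in the promoters of all members, bound or not, and the shares were not tested. From 250 bp upstream to 50 bp downstream of the TSS farthest 5', CCAAT was found in 7 of 18 cytosolic genes (38.9%), 8 of 15 mitochondrial genes (53.3%) and 46.7% of protein-coding genes. TATCGATA was found in 4 of 18 cytosolic genes (AlaRS, ArgRS, IleRS and TrpRS), in 1 of 15 mitochondrial genes (PheRS-m) and in 9.36% of all. CGATA was found in 13 of 18 and 8 of 15, against 47.4%, and GAGAG in 4 of 18 and 2 of 15, against 29.7%. A match is a description of letters and does not show a site in use.

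Genes that work beside the synthetases were looked at as a list of 12, of which 3 were bound in the optimal list, near the 21.6% of all protein-coding genes. GatB, at rank 3973 with the summit 53 bp upstream, and GatA, at rank 5264 and 92 bp upstream, encode subunits of the amidotransferase that turns glutamate on mitochondrial tRNA into glutamine. Their ranks were 3781, 7348 and 4147 for GatB and 10794, 5224 and 3914 for GatA in replicates 1, 2 and 3. GatC, the third subunit, had a pooled peak at rank 8653, below the optimal list. Gcn2, the kinase that senses uncharged tRNA, had a peak at rank 5770, 222 bp upstream, with ranks of 4572 and 4662 in replicates 1 and 2 and no promoter peak in replicate 3. These 3 peaks were shared with P5cr (GatA), Tsc1 (GatB) and Ugt35D1 (Gcn2).

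The remaining 9 were not bound. The subunits of the cytosolic phenylalanine enzyme, alpha-PheRS and beta-PheRS, are named outside the rule: alpha-PheRS had a pooled peak at rank 11157 and beta-PheRS none in any list. Of the scaffold proteins of the multi-synthetase complex AIMP3 had a pooled peak at rank 14462, AIMP1 a peak in replicate 2 alone at rank 14088, and AIMP2 none. Slimp, a paralogue of mitochondrial seryl-tRNA synthetase, had a pooled peak at rank 9372 and crc, the fly ATF4 gene, at 17763. Dtd, a deacylase that removes D-amino acids from tRNA, had none. For scale, 71 of 92 genes with cytosolic ribosomal protein symbols (77.2%) and 24 of 73 with mitochondrial ones (32.9%) were bound in the optimal list, and the differences from the synthetase classes were not tested.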

How the data were processed

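Peak lists of 3 replicates, a pooled list and an optimal list were used. Per the readme texts deposited with them, replicate lists come from single alignments and the pooled list from all 3, each set against 1 control alignment, and the optimal list from their irreproducible discovery rate. The build is dm6, per the labels. For aligner, caller and threshold, the sources used here give nothing. The deposited signal value is the authors' score for a peak and was used for ranks inside each list. An alternative ranking used the authors' −log10 q-value, at its largest value for 5672 of 6221 optimal peaks. Ties in it were ordered by signal, so in the optimal list this ranking could change little. Summits are the deposited offsets.

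Genes came from Ensembl release 115 (6 arms, no transposable elements) and sequence from the RefSeq copy of the assembly. Peak ends lay within its arm lengths, and 39 of 39 start codons of members read ATG. Positions count from 1. Scripts ran in Python 3.11.15 with numpy 2.4.6 and pandas 2.3.3, and were tested on planted distances and motifs.

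Head-to-head neighbours, TSS number and enzyme classes were looked at after values were seen. All members are named, with full values for bound ones. Members and lists were chosen with earlier results of these data known. Replicate spread is mean ± SD; whether replicates were separate collections is not stated beyond their label as biological replicates. No test over genes was run. Alternatives covered the promoter window, TSS choice, list length, ranking, replicate support and motif window.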

Additional observations from a re-analysis of the deposited data

How the results depend on the processing

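The cytosolic share stayed above the mitochondrial share over the replicates under all 8 alternatives run, by 25.9 percentage points with 3110 peaks per replicate to 45.2 with the full lists, and by 28.9 to 39.4 with 1 replicate left out. The counts themselves depended on the list. Of 18 cytosolic and 15 mitochondrial genes, 5 and 0 were bound by the 3110 optimal peaks with the highest signal (11.5% of protein-coding genes). The pooled list gave 15 and 7 (48.1%). Optimal peaks with a summit within 100 bp among the highest 6221 of all 3 replicates gave 5 and 0 (12.3%). With the same cut in the other 2 replicates, leaving out each replicate in turn, the counts were 5 to 6 and 0. The 5 came without replicate 3 (13.9%, against 13.8% and 15.1% without replicates 1 and 2). The single mitochondrial call, ArgRS-m, was lost in each case under this cut. At any rank, the weaker of its 2 optimal summits was matched in all 3 replicates. A window of 1000 bp gave 8 and 2, adding LeuRS-m, whose nearest optimal summit lay 911 bp from the TSS (24.8% of protein-coding genes). When each summit was given only to its nearest gene, 6 and 1 were bound, without ValRS and AspRS (16.6%). With peaks near another protein-coding gene's TSS left out, a choice made after seeing the data, 1 and 0 were bound, AlaRS alone, against 11.0% of protein-coding genes. CCAAT lay within 25 bp of 2 of the 12 summits and within 100 bp of 6. The share over all promoter peaks, 24.3%, is given for 50 bp alone. The median rank kept within 1.5 times its value under its 3 alternatives. The ranking by −log10 q-value, with ties ordered by signal, left it at 2818 and the mean class difference at 35.2 percentage points. The depth is unknown, so its part in the spread of these counts was not tested.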
